A study of Homo sapiens with 9 samples.

Results

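The effect of CID-1067700 (CID) on gene expression was read here from 6 of the 9 arrays of the series, namely the 3 arrays of ASCs treated with CID in differentiation medium (DM) and the 3 arrays of ASCs treated with DM alone. All groups were ASC52telo, an adipose-derived stem cell line made immortal with telomerase, so that every array comes from 1 line. The cells were kept for 10 days on rat tail collagen I in DM, an EpiLife-based medium that held BMP-4, EGF, ascorbic acid 2-phosphate, hydrocortisone and all-trans retinoic acid. CID was added at 40 μM, and the 3 arrays left over were from ASCs in DM with 0.1% DMSO, the vehicle. These did not enter the comparison itself, but they add to the estimate of the spread and are given as a background. The sources used here do not say whether the wells with CID held DMSO too. The arrays of a group are called biological replicates, but no source used here says that each came from its own culture, so that the p-values cover only how these samples differ, in part perhaps for technical reasons.

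Rab7 is a small GTPase that directs cargo from late endosomes to lysosomes and takes part in the late steps of autophagy, and CID competes with nucleotides for binding to it. In stromal cells this route decides how long receptors and matrix proteins stay in the cell, and it delivers cholesterol from endocytosed lipoprotein to the rest of the cell. ASCs are fibroblast-like cells that secrete collagens, matrix glycoproteins, growth factors and chemokines. The question of the comparison was which transcripts changed when CID was added to a medium meant to drive ASCs towards keratinocyte-like cells.

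The arrays, Clariom S Human, gave 1 log2 value for each of 21448 probe sets, of which 17687 genes could be named. The median log2 value of an array was 7.06 to 7.14, and 2 arrays of a group had a correlation across probe sets of 0.994 to 0.995. A DM array and a CID array had 0.991 to 0.994. DEGs are probe sets with an adjusted p under 0.05, from limma with Benjamini-Hochberg adjustment over all probe sets, and a linear fold change of at least 1.5. All fold changes are log2 differences, CID minus DM, and all p-values come from this fit. RAB7A itself, the gene of the targeted GTPase, had log2 values of 16.25, 16.12 and 16.23 with DM and 16.35, 16.30 and 16.41 with CID (log2 fold change 0.15 with SE 0.11 and adjusted p = 0.612), and it was not a DEG.

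CID gave 289 DEGs, 1.35% of all probe sets. Of these, 266 had a gene name, 72 of them higher (0.407% of the named genes) and 194 lower (1.10%), beside a median log2 fold change of 0.01 over all named genes. The downregulated genes moved further, with a median log2 fold change of -1.03 against 0.76 for the upregulated. At least 2-fold differences were found in 102 lower and 18 higher genes, and at least 4-fold differences in 13 lower genes and in 1 higher gene, HMOX1. In all 266 genes the 3 CID values lay wholly above or wholly below the 3 DM values, which was also so for 8.92% (above) and 9.79% (below) of all named genes. When each of the 6 arrays was left out in turn, 94 named genes (13 higher and 81 lower) were DEGs in all 6 fits, and 38 were DEGs in none. In a fit of only the 6 CID and DM arrays, 70 of the 266 named DEGs lost their call. Among the genes described here these were NR4A1, TNFAIP8, EGR3, PODN, IFI44L, HS6ST1, COL12A1, VEGFC, PDGFRA, DDX39A, CSRP1, SLC2A1, SLC38A2, PCDH18, DNAI4, NHLRC1, HRH2, FBLN1, GPNMB, RGS10, FLVCR2, SLC6A15, TLR6 and RARB, with adjusted p from 0.0506 (FLVCR2) to 0.0996 (HRH2).

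**Figure D1:**
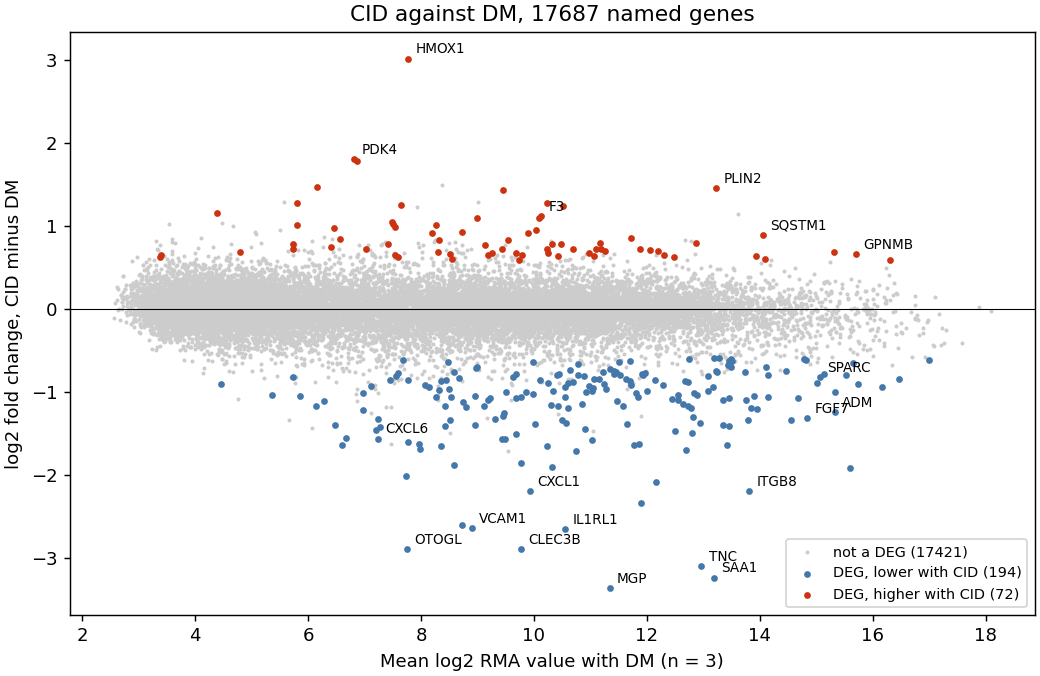
Each point is 1 of 17687 named genes, with its mean log2 value with DM (n = 3) on the x axis and its log2 fold change, CID minus DM, on the y axis. The 194 lower DEGs reach -3.36 (MGP), while HMOX1, at 3.02, stands apart from the other higher DEGs, which reach 1.81 (PDK4).

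The 6 lowest named DEGs are given first. MGP, which encodes matrix Gla protein, an inhibitor of calcification, had log2 values of 11.14, 11.68 and 11.20 with DM and 7.56, 8.90 and 7.48 with CID (10.3-fold lower, log2 fold change -3.36 with SE 0.36 and adjusted p = 0.00141). CID 2 was the highest of the CID arrays and still lay 2.24 below the lowest DM array. SAA1, an acute phase apolipoprotein, had 13.14, 13.12 and 13.32 with DM and 10.00, 9.92 and 9.96 with CID (9.40-fold lower, log2 fold change -3.23 with SE 0.17 and adjusted p = 7.66e-06), and the CID arrays were within 0.08 of each other. The paper also lists SAA2 as lower, and whether the probe set of SAA1 reads SAA2 too was not tested. TNC, or tenascin C, a matrix protein of wounds and tendons, had 12.91, 13.20 and 12.78 with DM and 9.80, 9.92 and 9.89 with CID (8.53-fold lower, log2 fold change -3.09 with SE 0.18 and adjusted p = 2.26e-05). CLEC3B, which encodes the plasminogen-binding lectin tetranectin, had 9.75, 9.74 and 9.84 with DM and 7.0, 6.64 and 7.02 with CID (log2 fold change -2.89 with SE 0.22 and adjusted p = 0.000211). OTOGL, which encodes an otogelin-like mucin of the inner ear matrix, had 8.16, 7.38 and 7.70 with DM and 4.73, 5.41 and 4.43 with CID (log2 fold change -2.89 with SE 0.30 and adjusted p = 0.00141). IL1RL1, the receptor of IL-33, had 10.45, 10.70 and 10.52 with DM and 7.74, 7.94 and 8.05 with CID (log2 fold change -2.65 with SE 0.14 and adjusted p = 7.66e-06). In each of these 6 genes the DMSO arrays also lay above the CID arrays, and the call was made in all 6 leave-one-out fits.

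The highest gene was HMOX1, which encodes heme oxygenase 1, the stress-induced enzyme that breaks down heme. Its log2 values were 8.03, 7.05 and 8.24 with DM and 11.19, 10.46 and 10.73 with CID (8.11-fold higher, log2 fold change 3.02 with SE 0.34 and adjusted p = 0.00192), so that the lowest CID array was 2.22 above the highest DM array although the DM arrays differed among themselves by more than the CID arrays did. PDK4, the kinase that turns off pyruvate dehydrogenase, had 7.0, 6.94 and 6.51 with DM and 8.32, 8.60 and 8.95 with CID (3.50-fold higher, log2 fold change 1.81 with SE 0.19 and adjusted p = 0.00151). CDK15, a little-studied cyclin-dependent kinase, had 6.71, 6.60 and 7.30 with DM and 8.38, 8.66 and 8.92 with CID (log2 fold change 1.78 with SE 0.21 and adjusted p = 0.00251). PLIN2, the general coat protein of lipid droplets, had 13.37, 12.95 and 13.37 with DM and 14.72, 14.75 and 14.61 with CID (log2 fold change 1.46 with SE 0.17 and adjusted p = 0.00251). BDKRB2, the B2 receptor of bradykinin, had 6.23, 5.57 and 6.68 with DM and 7.85, 7.35 and 7.70 with CID (log2 fold change 1.47 with SE 0.26 and adjusted p = 0.0198), with the DM arrays spread over more than 1 log2 unit. Among these 5 genes, the call was lost only for BDKRB2 on leaving out DM 1, CID 1 or CID 3 (adjusted p up to 0.088).

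**Figure D2:**
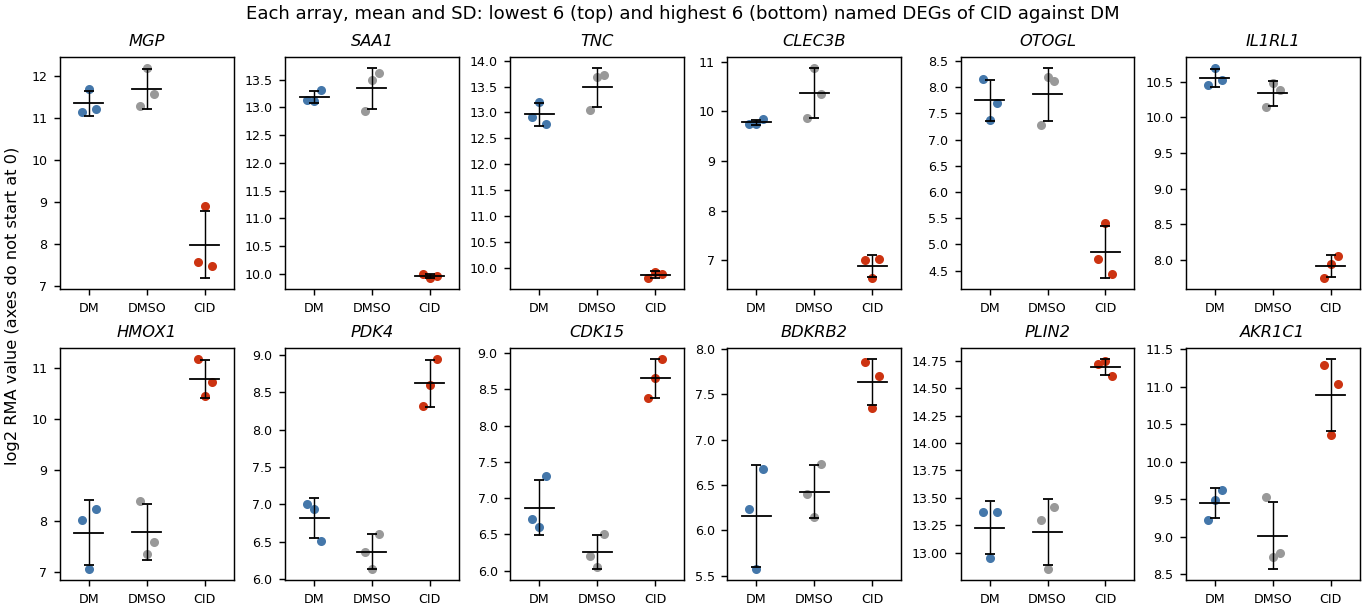
Log2 values of each array (points), with the mean and the SD (n = 3) in black, for the 6 lowest (top) and 6 highest (bottom) named DEGs. The 3 CID arrays lie apart from the DM and DMSO arrays in all 12 genes. The y axes differ between genes and do not start at 0.

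Of the 40 gene lists described, that of the matrix held the most DEGs. The counts of every list stand beside 0.407% higher and 1.10% lower over all named genes. Of 84 measured genes of matrix glycoproteins and proteoglycans, 15 were downregulated, 2 were upregulated and 67 did not pass the test, with a median log2 fold change of -0.19 beside 0.01 over all named genes. Besides MGP, TNC, CLEC3B and OTOGL, the lower genes were PRG4, SUSD2, VIT, SPARCL1, MAMDC2, CCN2, SVEP1, PODN, SPARC, EFEMP1 and VCAN. PRG4, which encodes lubricin, had log2 values of 12.28, 12.60 and 11.59 with DM and 10.37, 9.82 and 10.05 with CID (log2 fold change -2.08 with SE 0.27 and adjusted p = 0.00463). SPARC, a collagen-binding glycoprotein, had 15.08, 15.17 and 14.95 with DM and 14.30, 14.20 and 14.25 with CID (log2 fold change -0.82 with SE 0.12 and adjusted p = 0.00957). Its arrays differed little within a group, and the groups were 0.65 apart. CCN2, which encodes connective tissue growth factor, had a log2 fold change of -1.04 (adjusted p = 0.0137). VCAN, which encodes versican, had a log2 fold change of -0.69 (adjusted p = 0.0173). Upregulated were fibulin 1 (FBLN1, log2 fold change 0.66, adjusted p = 0.0301), a part of elastic fibres and basement membranes, and thrombospondin 2 (THBS2, log2 fold change 0.73, adjusted p = 0.0396), an inhibitor of vessel growth. Calls were lost for SPARCL1 on leaving out CID 3, CCN2 on leaving out DM 1, CID 1 or CID 3, SVEP1 and VCAN on leaving out DM 1, CID 1, CID 2 or CID 3, PODN on leaving out DM 1, DM 3, CID 1, CID 2 or CID 3, FBLN1 on leaving out DM 1, DM 2, CID 1, CID 2 or CID 3, and THBS2 on leaving out any 1 of the 6 arrays (adjusted p up to 0.129).

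Among 39 collagen chains, 4 were lower (10.3%, beside 1.10% of all named genes), 0 were higher and 35 did not pass the test (median -0.13). COL8A1, a short-chain network collagen, had log2 values of 12.79, 12.58 and 12.72 with DM and 10.98, 10.78 and 11.23 with CID (log2 fold change -1.70 with SE 0.15 and adjusted p = 0.000427). COL1A1, a chain of the main fibrillar collagen of skin and bone, had 10.71, 11.17 and 10.68 with DM and 9.80, 9.57 and 9.77 with CID (log2 fold change -1.14 with SE 0.16 and adjusted p = 0.00686), with a gap of 0.88 between the groups. COL5A2 and COL12A1, of chains that regulate or bind these fibrils, had a log2 fold change of -0.92 (adjusted p = 0.0271) and a log2 fold change of -0.77 (adjusted p = 0.0265). Of these chains, calls were lost for COL5A2 on leaving out any 1 of the 6 arrays, and COL12A1 on leaving out DM 1, DM 2, CID 1, CID 2 or CID 3 (adjusted p up to 0.109). None of the 25 measured genes of collagen processing and crosslinking was a DEG, with 4 higher and 5 lower by an unadjusted p of less than 0.05, which 5.8% (higher) and 7.23% (lower) of all named genes passed. Of 47 proteases and inhibitors of the MMP, ADAMTS and TIMP families, the 4 DEGs were all ADAMTS proteases, which cut proteoglycans, and all were lower. ADAMTS9 had a log2 fold change of -1.55 (adjusted p = 0.0287), ADAMTS4 a log2 fold change of -1.05 (adjusted p = 0.0275), ADAMTS5 a log2 fold change of -1.03 (adjusted p = 0.00718) and ADAMTS1 a log2 fold change of -0.94 (adjusted p = 0.00718). Of these, the calls lost with 1 array were those of ADAMTS9 on leaving out DM 1, DM 2, DM 3, CID 1 or CID 3, and ADAMTS4 on leaving out DM 1, DM 3, CID 1 or CID 2 (adjusted p up to 0.111). HAS2, a hyaluronan synthase, had 10.59, 10.60 and 10.29 with DM and 9.20, 9.29 and 9.0 with CID (log2 fold change -1.33 with SE 0.18 and adjusted p = 0.00534), 1 of 2 lower genes among 40 of hyaluronan and sulphated glycan synthesis, with HS6ST1, a heparan sulphate sulphotransferase, at a log2 fold change of -0.81 (adjusted p = 0.0196). Of this pair, the call was lost for HS6ST1 on leaving out DM 1, DM 3, CID 1, CID 2 or CID 3 (adjusted p up to 0.0781).

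Adhesion and cytoskeletal genes held few DEGs. ITGB8, the integrin subunit that binds latent TGF-beta, had log2 values of 14.01, 13.90 and 13.53 with DM and 11.05, 11.93 and 11.88 with CID (4.57-fold lower, log2 fold change -2.19 with SE 0.25 and adjusted p = 0.00207). ITGB5, another beta subunit, went the other way at a log2 fold change of 0.68 (adjusted p = 0.0194). With PCDH18 at a log2 fold change of -0.61 (adjusted p = 0.0305) and NEGR1 at a log2 fold change of -1.07 (adjusted p = 0.00957), both neural adhesion molecules, these were the 4 DEGs among 36 integrins and adhesion molecules (1 higher and 3 lower). VCAM1, which holds leukocytes on activated cells, fell from 8.81, 8.79 and 9.11 with DM to 5.70, 6.79 and 6.32 with CID (6.20-fold lower, log2 fold change -2.63 with SE 0.32 and adjusted p = 0.00306). Of 40 contractile and actin genes, TAGLN, which encodes transgelin, had 13.94, 13.70 and 13.60 with DM and 12.78, 12.77 and 12.42 with CID (log2 fold change -1.09 with SE 0.15 and adjusted p = 0.00638). CSRP1, a LIM protein of muscle, had a log2 fold change of -0.63 (adjusted p = 0.0338), and 38 did not pass the test. The median of these 40 genes was -0.22, and 28 lay below 0. In 21 of them the CID arrays lay wholly below the DM arrays, and in 2 wholly above. Over all named genes the shares were 9.79% below and 8.92% above. The test no longer called ITGB5 on leaving out DM 1, DM 2, DM 3, CID 1 or CID 2, and PCDH18 and CSRP1 on leaving out any 1 of the 6 arrays (adjusted p up to 0.118).

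**Figure D3:**
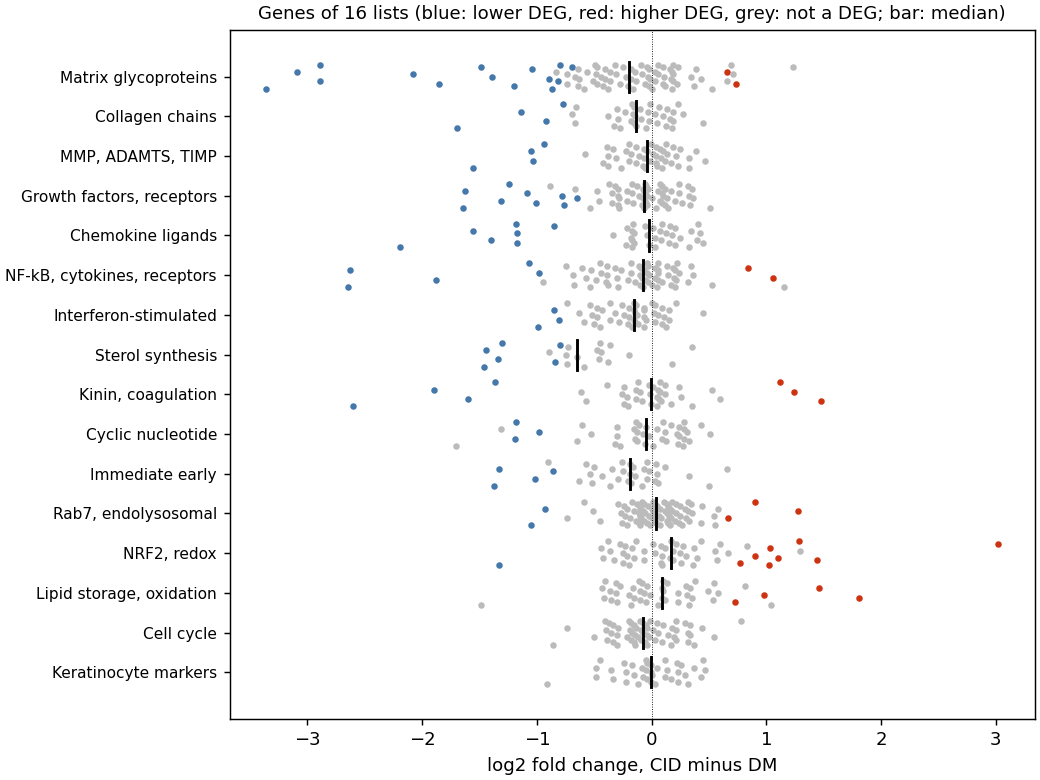
Log2 fold changes, CID minus DM, of the measured genes of 16 lists, with lower DEGs in blue, higher DEGs in red, genes that are not DEGs in grey and the median as a black bar. The matrix list (median -0.19, 55 of 84 genes below 0) and the chemokine list (median -0.02) have a tail of lower DEGs. Nearly all sterol synthesis genes lie below 0 (median -0.65), and the red points lie mostly in the NRF2 and lipid storage lists.

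The chemokine ligands held 7 downregulated genes and no upregulated ones. Of 39 measured ligands, 32 did not pass the test, and the median of the list was -0.02. The lower share was 17.9%, beside 1.10% of all named genes. The 7 genes are CXCL1, CXCL2, CXCL3, CXCL5, CXCL6 and CXCL8, which attract neutrophils through CXCR1 and CXCR2 and lie in 1 cluster on chromosome 4, and CCL2, which attracts monocytes. The promoters of the 6 CXCL genes are shown because they carry a common run of letters, in RefSeq sequence of GRCh38.p14. Each line gives the 150 bases before the start of the gene, 5′ to 3′ on the strand of the gene, with the match to GGANTTTCC, a form of the binding site of NF-kB, in capitals.
CXCL1: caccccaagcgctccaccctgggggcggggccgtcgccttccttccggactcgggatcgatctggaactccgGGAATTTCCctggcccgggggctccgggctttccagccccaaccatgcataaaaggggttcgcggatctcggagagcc
CXCL2: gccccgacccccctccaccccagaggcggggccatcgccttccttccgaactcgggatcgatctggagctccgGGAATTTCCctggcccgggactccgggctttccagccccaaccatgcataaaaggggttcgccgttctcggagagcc
CXCL3: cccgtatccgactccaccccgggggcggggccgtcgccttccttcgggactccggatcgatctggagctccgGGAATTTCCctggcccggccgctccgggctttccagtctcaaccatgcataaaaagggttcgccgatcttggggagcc
CXCL5: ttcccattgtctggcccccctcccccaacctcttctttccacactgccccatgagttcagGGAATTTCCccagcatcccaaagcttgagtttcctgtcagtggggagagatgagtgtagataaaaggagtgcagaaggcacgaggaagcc
CXCL6: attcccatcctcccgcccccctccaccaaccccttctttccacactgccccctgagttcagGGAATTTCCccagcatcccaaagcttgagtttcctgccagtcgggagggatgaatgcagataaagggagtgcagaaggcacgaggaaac
CXCL8: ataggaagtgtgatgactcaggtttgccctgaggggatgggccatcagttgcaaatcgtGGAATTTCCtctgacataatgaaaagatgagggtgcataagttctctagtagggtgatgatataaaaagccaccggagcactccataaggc
The windows are chr4:73869243-73869392 on the plus strand for CXCL1, chr4:74099196-74099345 on the minus strand for CXCL2, chr4:74038690-74038839 on the minus strand for CXCL3, chr4:73998678-73998827 on the minus strand for CXCL5, chr4:73836528-73836677 on the plus strand for CXCL6 and chr4:73740419-73740568 on the plus strand for CXCL8. The same 9 letters, GGAATTTCC, stand in all 6 windows, 77 to 91 bases before the start. In windows from 250 bases before to 50 bases after the start, GGANTTTCC was found on either strand in 449 of 27305 promoters (1.64%). It was found in 2 of 23 promoters of the chemokine ligands that were not DEGs, CXCL10 and CXCL11, and in 9 of 146 promoters of lower DEGs (6.16%), of which the other 3 are HMGCS1, NR4A3 and NTNG1. In the list of NF-kB and cytokine genes other than chemokines it was found in 0 of 6 promoters of DEGs and in 9 of 47 promoters of genes that were not DEGs (19.1%), among them those of NFKBIA, TNFAIP3, ICAM1 and IL6. Among higher DEGs it was in 2 of 63 (3.17%). The 6 promoters are copies of related genes and are not independent of each other, and a match of letters is not a site of binding. The promoters of CCL2 and SAA1 were not used here.

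On the arrays, CXCL1 had log2 values of 10.12, 10.14 and 9.54 with DM, 10.02, 9.08 and 8.44 with DMSO and 7.55, 7.89 and 7.78 with CID (4.57-fold lower than DM, log2 fold change -2.19 with SE 0.33 and adjusted p = 0.00871). CXCL6 had 7.15, 7.41 and 7.15 with DM, 6.68, 6.89 and 6.66 with DMSO and 5.64, 5.73 and 5.66 with CID (log2 fold change -1.56 with SE 0.12 and adjusted p = 0.000236). CXCL5 had 8.56, 8.28 and 8.44 with DM, 7.84, 7.89 and 7.65 with DMSO and 7.24, 7.32 and 7.21 with CID (log2 fold change -1.17 with SE 0.12 and adjusted p = 0.00135). In these 3 genes, the groups DM and CID were apart by 1.65, 1.42 and 0.96, and the DMSO arrays of CXCL5 and CXCL6 lay between them. CXCL8, which encodes IL-8, had 8.63, 8.75 and 7.91 with DM, 8.03, 8.05 and 7.49 with DMSO and 7.13, 7.0 and 6.95 with CID (log2 fold change -1.40 with SE 0.22 and adjusted p = 0.0119). CXCL3 had a log2 fold change of -1.18 (adjusted p = 0.0125), CXCL2 a log2 fold change of -0.85 (adjusted p = 0.0158) and CCL2 a log2 fold change of -1.17 (adjusted p = 0.0307). Their calls were lost for CXCL8 on leaving out DM 1 or CID 3, CXCL3 on leaving out DM 1, CID 1 or CID 2, CXCL2 on leaving out DM 1, DM 2 or CID 3, and CCL2 on leaving out DM 2, DM 3, CID 1, CID 2 or CID 3 (adjusted p up to 0.127). In all 7 genes the mean with DMSO was below that with DM (log2 differences of -0.75 to -0.47), and none of them was a DEG of DMSO against DM (lowest adjusted p = 0.472). Compared with DMSO in the same model, CXCL1 (CID minus DMSO -1.44, adjusted p = 0.0425) and CXCL6 (-1.07, adjusted p = 0.00159) were also DEGs. CXCL5 (-0.54, adjusted p = 0.0435) was below the fold threshold there. CXCL8 (-0.83, adjusted p = 0.0811), CXCL3 (-0.51, adjusted p = 0.217) and CCL2 (-0.70, adjusted p = 0.157) did not pass that test. The value of CXCL2 against DMSO is not given here. The part of the vehicle in the change of these 7 genes was not tested. Probe sets of CXCL1, CXCL2 and CXCL3, which are close copies of each other, may read each other's transcripts, and their separate values are uncertain to that extent. CXCL12, the ligand most typical of stromal cells, had 13.99, 13.55 and 14.03 with DM and 14.13, 13.72 and 13.98 with CID (log2 fold change 0.09, adjusted p = 0.901), and the groups overlapped.

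**Figure D4:**
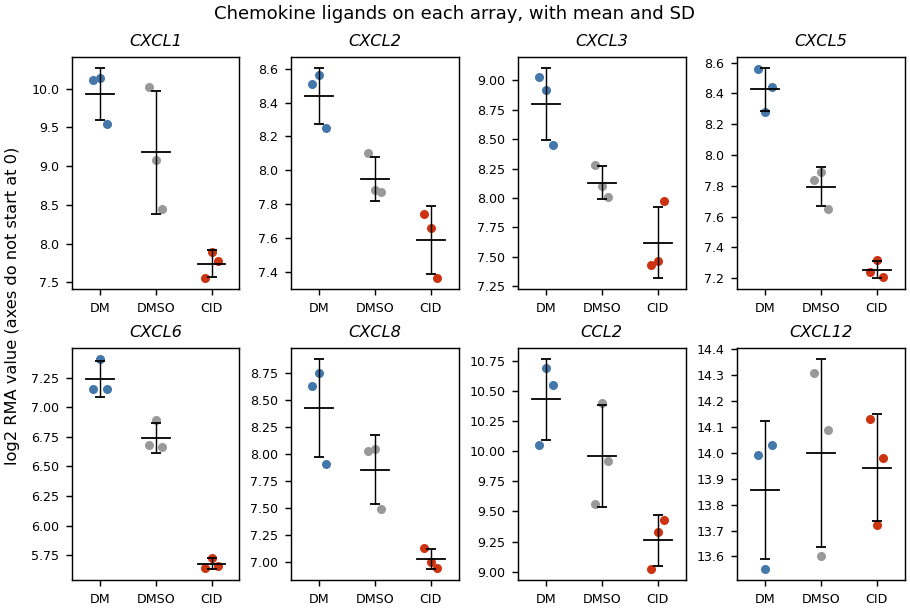
Log2 values of 8 chemokine ligands on each array (points), with the mean and the SD (n = 3) in black. From CXCL1 to CCL2, the CID arrays lie below the DM arrays and the DMSO mean lies between, while CXCL12 overlaps between the groups. The y axes differ between genes and do not start at 0.

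Genes of the NF-kB pathway and of cytokines other than chemokines changed in both directions. Of 67 measured, 5 were lower, 2 were higher and 60 did not pass the test (median -0.08). The lower genes were IL1RL1, VCAM1, TNFSF10, TNFAIP8 and TNFRSF11B. TNFSF10, which encodes the death ligand TRAIL, had log2 values of 8.48, 8.27 and 9.0 with DM and 7.11, 6.82 and 6.19 with CID (log2 fold change -1.88 with SE 0.26 and adjusted p = 0.00614). TNFRSF11B, which encodes osteoprotegerin, a decoy receptor that also binds TRAIL, had 12.22, 11.87 and 11.94 with DM and 11.07, 10.97 and 11.05 with CID (log2 fold change -0.98 with SE 0.13 and adjusted p = 0.00554). The higher genes were TLR6, a toll-like receptor, at a log2 fold change of 1.06 (adjusted p = 0.0198) and PTGES, which makes prostaglandin E2, at a log2 fold change of 0.84 (adjusted p = 0.0137). IL6, which encodes interleukin 6, had 7.18, 7.07 and 7.08 with DM and 5.60, 6.60 and 6.30 with CID and did not pass the test (log2 fold change -0.94 with SE 0.23 and adjusted p = 0.0761). IL1B had a log2 fold change of 0.22 (adjusted p = 0.825). TNFAIP8, an inhibitor of apoptosis, had a log2 fold change of -1.07 (adjusted p = 0.0345). Calls ended for TNFAIP8 on leaving out DM 1, DM 3, CID 1, CID 2 or CID 3, TLR6 on leaving out DM 3, CID 1 or CID 2, and PTGES on leaving out DM 1, DM 3 or CID 1 (adjusted p up to 0.127). Of 37 acute phase and complement genes, SAA1 and SERPING1, the C1 inhibitor (log2 fold change -1.04, adjusted p = 0.00605), were lower and 35 did not pass the test (median 0.00). Of 49 interferon-stimulated genes, IFITM3 (log2 fold change -0.99, adjusted p = 0.00151), IFITM2 (log2 fold change -0.81, adjusted p = 0.0061) and IFI44L (log2 fold change -0.85, adjusted p = 0.0493) were lower and 46 did not pass the test (median -0.15). IFITM2 and IFITM3, which block entry of viruses from endosomes, are near-identical in sequence, so that a probe set may read both. Among the interferon-stimulated genes, the call was lost for IFI44L on leaving out DM 1, DM 3, CID 1, CID 2 or CID 3 (adjusted p up to 0.156).

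In sterol synthesis, most genes lay below 0. Of 21 measured genes of sterol and isoprenoid synthesis and uptake, 6 were DEGs, all lower, and 15 did not pass the test, with a median log2 fold change of -0.65. All but GGPS1 and TM7SF2 had a fold change below 0, and in 17 the CID arrays lay wholly below the DM arrays. This was also so for 9.79% of all named genes, for 21 of 40 contractile genes and for 37 of 84 matrix genes. FDPS, farnesyl diphosphate synthase, had log2 values of 12.67, 12.48 and 12.34 with DM and 10.79, 11.30 and 11.02 with CID (log2 fold change -1.46 with SE 0.19 and adjusted p = 0.00424). ACAT2, which joins acetyl-CoA units, had 11.23, 10.75 and 10.75 with DM and 9.12, 9.79 and 9.50 with CID (log2 fold change -1.44 with SE 0.26 and adjusted p = 0.0212). HMGCS1, which makes HMG-CoA, had 14.73, 14.65 and 14.26 with DM and 12.68, 13.60 and 13.35 with CID (log2 fold change -1.34 with SE 0.23 and adjusted p = 0.0169). In these genes CID 1 was the lowest and CID 2 the highest of the CID arrays. IDI1, the isomerase before FDPS, had a log2 fold change of -1.30 (adjusted p = 0.0155). EBP, a late sterol isomerase, had a log2 fold change of -0.84 (adjusted p = 0.0242). STARD4, a carrier of cholesterol, had a log2 fold change of -0.80 (adjusted p = 0.0446). TMEM97, a sterol-binding protein of the ER that was in no list and was picked after its values were seen, had 13.76, 13.17 and 13.30 with DM and 11.45, 12.26 and 11.61 with CID (log2 fold change -1.64 with SE 0.27 and adjusted p = 0.0137). Genes below the fold or p threshold included MVD at a log2 fold change of -0.89 (adjusted p = 0.0513), INSIG1, which holds back the sterol sensor, at a log2 fold change of -0.65 (adjusted p = 0.0843), and SREBF2, which encodes the transcription factor of the pathway, at a log2 fold change of -0.44 (adjusted p = 0.257). Only FDPS was called in all 6 leave-one-out fits, and calls were lost for ACAT2 on leaving out DM 1, DM 3, CID 1 or CID 3, HMGCS1 on leaving out DM 1 or DM 2, IDI1 and TMEM97 on leaving out DM 1, CID 1 or CID 3, EBP on leaving out DM 1, DM 2, DM 3, CID 1 or CID 3, and STARD4 on leaving out any 1 of the 6 arrays (adjusted p up to 0.152). The letters TCACNCCAC, a form of the sterol regulatory element found in 1.15% of all promoters on either strand, were in 0 of 5 promoters of the DEGs in this list and in that of SREBF2. In fatty acid synthesis and desaturation, none of 18 genes was a DEG (median -0.03), and 0 were higher and 4 lower by an unadjusted p of less than 0.05. Of 20 genes of sterol efflux and apolipoproteins, APOD, a lipid-binding lipocalin (13.49, 13.99 and 13.91 with DM and 12.38, 12.62 and 12.38 with CID, log2 fold change -1.34 with SE 0.15 and adjusted p = 0.00182), and ABCA8, a transporter (log2 fold change -0.79, adjusted p = 0.0162), were lower. The call was lost for ABCA8 on leaving out DM 1, DM 3, CID 1 or CID 3 (adjusted p up to 0.0747).

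**Figure D5:**
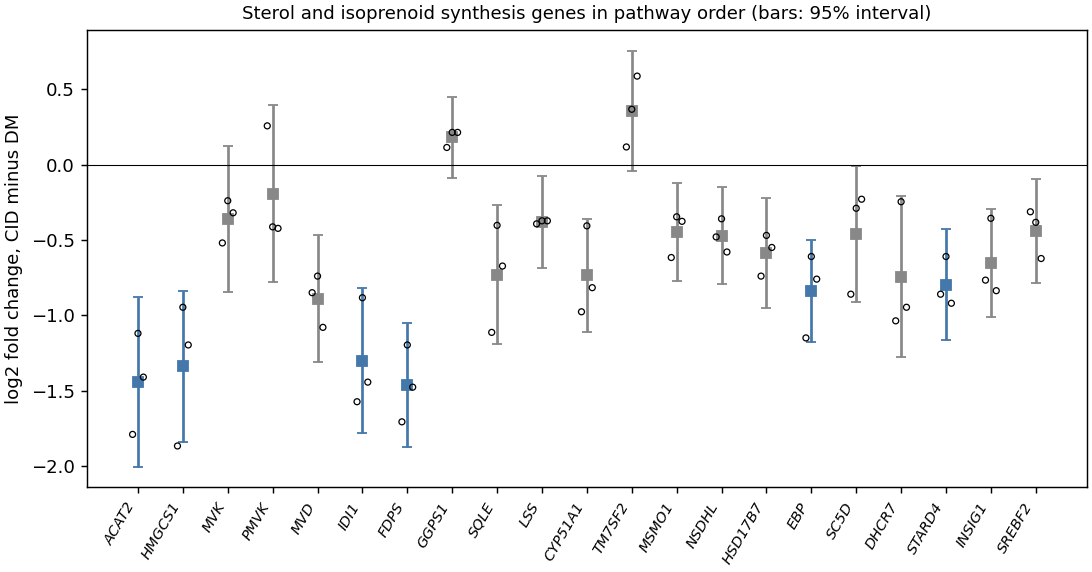
Log2 fold change, CID minus DM, of 21 genes of sterol and isoprenoid synthesis and uptake in the order of the pathway, with the 95% interval of the limma fit as bars and each CID array minus the DM mean as open circles. The 6 DEGs are in blue, and all genes but GGPS1 and TM7SF2 lie below 0.

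Among the 40 lists, the share of upregulated genes was highest in that of NRF2 targets and redox enzymes, NRF2 being the transcription factor of the electrophile response. Of 51 measured genes, 8 were higher, 1 was lower and 42 did not pass the test (median 0.17). The shares were 15.7% higher and 1.96% lower, beside 0.407% and 1.10% of all named genes. The higher genes were HMOX1, AKR1C1, AKR1C3, TRIM16, SRXN1, OSGIN1, SQSTM1 and GCLM. SRXN1, which reduces peroxiredoxins, had log2 values of 7.60, 7.20 and 7.70 with DM and 8.70, 8.52 and 8.37 with CID (log2 fold change 1.03 with SE 0.16 and adjusted p = 0.00968). AKR1C3, which reduces steroids and prostaglandins, had 10.39, 9.89 and 10.41 with DM and 11.90, 11.24 and 11.41 with CID (log2 fold change 1.29 with SE 0.21 and adjusted p = 0.0128). AKR1C1, its close relative, had 9.23, 9.49 and 9.63 with DM and 11.29, 10.36 and 11.03 with CID (log2 fold change 1.44 with SE 0.26 and adjusted p = 0.0232). The AKR1C genes are near-identical in sequence, as are TRIM16 and TRIM16L, and a probe set may read more than 1 of them. TRIM16, a ligase of the stress response, had a log2 fold change of 1.10 (adjusted p = 0.00702). OSGIN1, an oxidative stress-induced growth inhibitor, had a log2 fold change of 1.02 (adjusted p = 0.0128). SQSTM1, which encodes p62, a receptor of autophagy that also frees NRF2, had 14.16, 13.85 and 14.16 with DM and 15.08, 14.90 and 14.89 with CID (log2 fold change 0.90 with SE 0.15 and adjusted p = 0.0142). GCLM, the modifier subunit of the enzyme that starts glutathione synthesis, had a log2 fold change of 0.77 (adjusted p = 0.0289). ABCC2, an export pump for conjugates, fell (log2 fold change -1.33, adjusted p = 0.0169). Calls ended for AKR1C1 on leaving out DM 1, DM 2, DM 3, CID 1 or CID 3, OSGIN1 on leaving out DM 3, SQSTM1 on leaving out CID 1, GCLM on leaving out any 1 of the 6 arrays, and ABCC2 on leaving out DM 1, CID 2 or CID 3 (adjusted p up to 0.116). TGACNNNGCA, the core of the antioxidant response element, was in 3.26% of all promoters on either strand and in 1 of 8 promoters of these DEGs, that of GCLM. Of 33 genes of heme breakdown and iron handling, 3 were higher and 0 lower (median 0.10). These were HMOX1, MELTF, an iron-binding surface protein, at a log2 fold change of 0.99 (adjusted p = 0.0305), and FLVCR2, a transporter once described for heme, at a log2 fold change of 0.79 (adjusted p = 0.0323). Both calls were lost with some arrays left out, MELTF on leaving out DM 2, DM 3, CID 1 or CID 3, and FLVCR2 on leaving out any 1 of the 6 arrays (adjusted p up to 0.125).

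In lipid handling, 4 of 47 genes of lipid droplets, triglycerides and fatty acid oxidation were higher (8.51%, beside 0.407% of all named genes) and 0 were lower (median 0.09). Besides PDK4 and PLIN2 these were GPAT3, an acyltransferase that starts glycerolipid synthesis, and ANGPTL4, a secreted inhibitor of lipoprotein lipase. GPAT3 had log2 values of 6.38, 6.71 and 6.30 with DM and 7.28, 7.34 and 7.70 with CID (log2 fold change 0.98 with SE 0.16 and adjusted p = 0.0128). ANGPTL4 had 5.77, 5.71 and 5.73 with DM and 6.34, 6.48 and 6.58 with CID (log2 fold change 0.73 with SE 0.12 and adjusted p = 0.0137). The CID arrays were above the DM arrays by 0.57 and 0.57. Both calls were lost, GPAT3 on leaving out DM 1, DM 3 or CID 3, and ANGPTL4 on leaving out DM 3, CID 2 or CID 3 (adjusted p up to 0.0625). PLIN1, the droplet coat protein of adipocytes, had a log2 fold change of 1.04 (adjusted p = 0.0929).

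Ligands and receptors of growth factor pathways were lower where they changed. Of 67 measured growth factor ligands and receptors, 9 were lower, 0 were higher and 58 did not pass the test (median -0.07). The list covers the EGF, FGF, PDGF, VEGF, HGF, neurotrophin and adrenomedullin families and some other genes, such as GFRA1, ROS1 and ANGPT1. FGF7, the keratinocyte growth factor made by stromal cells, had log2 values of 14.79, 14.97 and 14.76 with DM and 13.42, 13.66 and 13.51 with CID (log2 fold change -1.31 with SE 0.12 and adjusted p = 0.000623). ADM, the vasodilator adrenomedullin, had 15.58, 15.25 and 15.16 with DM and 14.30, 14.10 and 13.87 with CID (log2 fold change -1.24 with SE 0.15 and adjusted p = 0.00322). GFRA1, a co-receptor of GDNF, had 13.45, 13.19 and 13.42 with DM and 12.44, 12.05 and 12.30 with CID (log2 fold change -1.09 with SE 0.16 and adjusted p = 0.00715). These 3 genes were called in all 6 leave-one-out fits. NRG1, a ligand of ErbB receptors, had a log2 fold change of -1.64 (adjusted p = 0.0173), and ROS1, a receptor tyrosine kinase, a log2 fold change of -1.63 (adjusted p = 0.0114). NRP2, a co-receptor of VEGF and semaphorins, had a log2 fold change of -1.0 (adjusted p = 0.0221), and ANGPT1, the ligand of TIE2, a log2 fold change of -0.78 (adjusted p = 0.0181). VEGFC, the lymphatic growth factor, had a log2 fold change of -0.76 (adjusted p = 0.0279), and PDGFRA, a receptor of PDGF, a log2 fold change of -0.65 (adjusted p = 0.0337). Calls were lost here for NRG1 on leaving out DM 1, DM 2, CID 1 or CID 3, ROS1 on leaving out DM 1, NRP2 and PDGFRA on leaving out DM 1, DM 3, CID 1, CID 2 or CID 3, ANGPT1 on leaving out DM 1, DM 3, CID 1 or CID 3, and VEGFC on leaving out DM 1, DM 3, CID 2 or CID 3 (adjusted p up to 0.124). In the IGF axis, 3 of 20 genes were lower and 0 higher (median -0.07), namely the binding proteins IGFBP7 (12.93, 12.87 and 12.84 with DM and 11.75, 12.01 and 11.80 with CID, log2 fold change -1.03 with SE 0.15 and adjusted p = 0.00715) and IGFBP5 (log2 fold change -1.05, adjusted p = 0.0414) and PAPPA, a protease that frees IGF (log2 fold change -0.74, adjusted p = 0.0227). Here calls were lost for IGFBP5 on leaving out any 1 of the 6 arrays, and PAPPA on leaving out DM 1, DM 2, CID 1, CID 2 or CID 3 (adjusted p up to 0.135).

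In developmental pathways the share of DEGs was 2 of 59 Wnt genes (3.39%), 2 of 31 Notch genes (6.45%) and 1 of 51 TGF-beta and BMP genes (1.96%), all lower, beside 1.10% lower over all named genes, and nothing is read from counts this small. Of the Wnt genes, WNT5A, a ligand of the non-canonical pathway, and ROR2, its receptor, were lower, and 57 did not pass the test (median -0.03). ROR2 had log2 values of 9.29, 9.71 and 9.32 with DM and 7.90, 7.95 and 7.79 with CID (log2 fold change -1.56 with SE 0.14 and adjusted p = 0.000402). WNT5A had 13.12, 12.48 and 12.59 with DM and 11.58, 11.42 and 11.71 with CID (log2 fold change -1.16 with SE 0.20 and adjusted p = 0.0198). Of the Notch genes, JAG1, a ligand, had 12.11, 11.40 and 11.43 with DM and 10.41, 10.40 and 10.00 with CID (log2 fold change -1.38 with SE 0.20 and adjusted p = 0.00759). MAMLD1, a mastermind-like coactivator, had a log2 fold change of -1.16 (adjusted p = 0.0301) (median of the list 0.03). Of the TGF-beta and BMP genes, CHRDL1, a secreted BMP antagonist, was the 1 DEG (16.54, 16.38 and 16.47 with DM and 15.71, 15.49 and 15.66 with CID, log2 fold change -0.84 with SE 0.12 and adjusted p = 0.00702), in cells that all received BMP-4 with the medium (median 0.00). These calls were lost for WNT5A on leaving out DM 1, CID 1, CID 2 or CID 3, and MAMLD1 on leaving out DM 1, DM 3, CID 2 or CID 3 (adjusted p up to 0.112). Of 22 genes of retinoid metabolism, RDH10, which makes retinaldehyde from retinol, fell from 16.01, 15.28 and 15.49 to 13.78, 13.74 and 13.53 (3.76-fold lower, log2 fold change -1.91 with SE 0.19 and adjusted p = 0.00114). RARB, a retinoic acid receptor that is itself induced by retinoic acid, had 4.52, 4.73 and 3.91 with DM and 5.99, 5.22 and 5.43 with CID (log2 fold change 1.16 with SE 0.24 and adjusted p = 0.0446). Its DM values lay below 5.40, the mean log2 value that bounds the dimmest 33.3% of probe sets, so its fold change is uncertain. The call was lost for RARB on leaving out DM 1, DM 3, CID 1, CID 2 or CID 3 (adjusted p up to 0.149).

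Genes of signalling by lipids, peptides and cyclic nucleotides formed smaller sets. XPNPEP2, an aminopeptidase that inactivates bradykinin, had log2 values of 8.73, 8.38 and 9.09 with DM and 6.30, 5.99 and 6.10 with CID (6.08-fold lower, log2 fold change -2.60 with SE 0.32 and adjusted p = 0.00345). CPM, a carboxypeptidase that also trims kinins, had 13.17, 12.58 and 13.06 with DM and 11.63, 11.32 and 11.76 with CID (log2 fold change -1.37 with SE 0.18 and adjusted p = 0.00487). DPP4, a dipeptidyl peptidase of the cell surface, went up (10.19, 10.69 and 10.65 with DM and 11.74, 11.81 and 11.70 with CID, log2 fold change 1.24 with SE 0.16 and adjusted p = 0.00487), as did the kinin receptor BDKRB2. F3, which encodes tissue factor, the starter of coagulation, had 10.00, 10.26 and 10.13 with DM and 11.18, 11.41 and 11.17 with CID (log2 fold change 1.12 with SE 0.15 and adjusted p = 0.00568). TFPI2, a protease inhibitor related to the tissue factor inhibitor, had 9.85, 10.55 and 10.56 with DM, 9.56, 9.28 and 8.98 with DMSO and 8.13, 8.36 and 8.79 with CID (log2 fold change -1.89 with SE 0.23 and adjusted p = 0.00345), with a DMSO mean -1.05 from that of DM. ENTPD1, which removes extracellular ATP, had a log2 fold change of -1.60 (adjusted p = 0.0127). In all, 3 of 39 genes of the kinin and coagulation systems were higher and 4 lower (median 0.00). Among them, calls were lost for BDKRB2 on leaving out DM 1, CID 1 or CID 3, and ENTPD1 on leaving out CID 1 (adjusted p up to 0.088). Of 44 genes of RGS proteins and of signalling by sphingosine 1-phosphate and lysophosphatidate, 4 were lower and 1 was higher. ENPP2, which encodes autotaxin, had 13.23, 13.69 and 13.12 with DM and 11.94, 11.98 and 11.93 with CID (log2 fold change -1.40 with SE 0.20 and adjusted p = 0.00759). S1PR1, a receptor of sphingosine 1-phosphate, had 12.39, 12.60 and 12.66 with DM and 11.56, 11.56 and 11.24 with CID (log2 fold change -1.10 with SE 0.13 and adjusted p = 0.00279). PLPPR4, a phosphatase-related protein, had a log2 fold change of -1.12 (adjusted p = 0.00568). RGS4 had a log2 fold change of -1.50 (adjusted p = 0.0227) and RGS10 a log2 fold change of 0.78 (adjusted p = 0.0301). Both RGS calls could be lost, RGS4 on leaving out any 1 of the 6 arrays, and RGS10 on leaving out DM 1, DM 3, CID 1, CID 2 or CID 3 (adjusted p up to 0.124). Of 41 phosphodiesterase and cyclase genes, PDE3A (log2 fold change -1.19, adjusted p = 0.00499), PDE7B (log2 fold change -0.98, adjusted p = 0.0137) and NPR3, a clearance receptor of natriuretic peptides (log2 fold change -1.18, adjusted p = 0.0105), were lower, and 38 did not pass the test (median -0.05). Of these, the test lost PDE7B on leaving out DM 3 or CID 1 (adjusted p up to 0.0659). Of 41 ion channel genes, 3 were lower and 1 higher. SCN7A, a sodium-sensing channel, had 8.10, 7.16 and 7.96 with DM and 5.78, 5.50 and 5.90 with CID (log2 fold change -2.01 with SE 0.29 and adjusted p = 0.00759). GRIA1, a glutamate receptor subunit, had a log2 fold change of -1.09 (adjusted p = 0.00921), and KCNK2, a potassium channel, a log2 fold change of -0.75 (adjusted p = 0.0105). KCNQ3, another potassium channel, was higher (log2 fold change 1.26, adjusted p = 0.0141). The call was lost for KCNQ3 on leaving out DM 1, CID 2 or CID 3 (adjusted p up to 0.0703).

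Immediate early genes, which growth signals switch on quickly, had 4 lower and 0 higher DEGs among 35 (median -0.19). These were NR4A1 and NR4A3, orphan nuclear receptors, EGR3, a zinc finger factor, and SPRY1, which dampens receptor kinases. NR4A1 had log2 values of 10.73, 9.93 and 11.03 with DM and 8.87, 9.29 and 9.41 with CID (log2 fold change -1.37 with SE 0.27 and adjusted p = 0.0335). NR4A3 had a log2 fold change of -1.33 (adjusted p = 0.0189), EGR3 a log2 fold change of -1.02 (adjusted p = 0.0323) and SPRY1 a log2 fold change of -0.86 (adjusted p = 0.0136). No call of this list held in all 6 fits, with losses for NR4A1 on leaving out DM 1, DM 3, CID 1, CID 2 or CID 3, NR4A3 on leaving out DM 1, DM 3, CID 1 or CID 2, EGR3 on leaving out DM 1, DM 2, CID 1 or CID 3, and SPRY1 on leaving out DM 1, CID 2 or CID 3 (adjusted p up to 0.136). In the unfolded protein response, PDIA4, a disulphide isomerase of the ER (11.13, 11.37 and 11.21 with DM and 10.28, 10.47 and 10.27 with CID, log2 fold change -0.90 with SE 0.13 and adjusted p = 0.00702), and MANF, a factor secreted under ER stress (log2 fold change -1.06, adjusted p = 0.0227), were lower among 36 genes (median -0.12). Here the call was lost for MANF on leaving out any 1 of the 6 arrays (adjusted p up to 0.0866). Of 25 glucocorticoid-induced genes, ANGPTL4 was higher and MAOA, a monoamine oxidase, lower (log2 fold change -1.40, adjusted p = 0.0338), with hydrocortisone in the medium of all groups. The call was lost for MAOA on leaving out DM 1, DM 3, CID 1, CID 2 or CID 3 (adjusted p up to 0.124).

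Genes of the compartment that Rab7 serves gave 5 DEGs. Of 82 measured genes of Rab7 and its regulators, endocytic adaptors and lysosomal proteins, 3 were higher, 2 were lower and 77 did not pass the test, with a median of 0.04. The shares were 3.66% higher and 2.44% lower, beside 0.407% and 1.10% over all named genes, and nothing is read from counts this small. STON2, an adaptor that sorts synaptotagmin into coated pits, had log2 values of 6.04, 5.92 and 5.44 with DM and 6.63, 7.34 and 7.27 with CID (log2 fold change 1.28 with SE 0.21 and adjusted p = 0.0141). GPNMB, a lysosomal glycoprotein, had 15.78, 15.64 and 15.71 with DM and 16.48, 16.44 and 16.20 with CID (log2 fold change 0.66 with SE 0.13 and adjusted p = 0.0287). SQSTM1, with the values given above, was the other higher gene. DNAJC6, which encodes auxilin and uncoats clathrin vesicles, had a log2 fold change of -1.05 (adjusted p = 0.0261). SGIP1, an endocytic adaptor, had 8.10, 8.33 and 7.98 with DM, 6.63, 6.52 and 6.87 with DMSO and 7.16, 7.25 and 7.21 with CID (log2 fold change -0.93 with SE 0.13 and adjusted p = 0.00751), and it was the 1 DEG of DMSO against DM (0.00466% of probe sets), with a DMSO value lower than that of CID. With 1 array left out, the calls were lost for STON2 on leaving out DM 3, CID 2 or CID 3, GPNMB on leaving out DM 1, DM 2, DM 3, CID 1 or CID 2, SQSTM1 on leaving out CID 1, and DNAJC6 on leaving out any 1 of the 6 arrays (adjusted p up to 0.116). CTNS, the lysosomal carrier of cystine, was not in the list and was picked after its values were seen (log2 fold change 0.65, adjusted p = 0.0389). The call was lost for CTNS on leaving out any 1 of the 6 arrays (adjusted p up to 0.14).

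Markers of cell identity were mostly without a call. Of 15 stromal markers, DPP4 was higher and PDGFRA lower, and the mean log2 value over the list was 11.7 to 11.9 on the DM arrays and 11.7 to 11.8 on the CID arrays. VIM, which encodes vimentin, had 16.82, 16.72 and 16.80 with DM and 16.71, 16.67 and 16.77 with CID (log2 fold change -0.06, adjusted p = 0.856). Of 38 keratinocyte markers, 0 were DEGs, with 2 higher and 3 lower by an unadjusted p of less than 0.05, beside 5.8% and 7.23% of all named genes, and a median of -0.01. Their mean log2 value was 5.25 to 5.51 on the DM arrays and 5.31 to 5.34 on the CID arrays. KRT5 and KRT14, the keratins of basal keratinocytes, had 4.15, 4.91 and 4.48 with DM and 4.04, 4.34 and 4.14 with CID (log2 fold change -0.34, adjusted p = 0.497) and, for the latter, 3.30, 3.72 and 3.49 with DM and 3.79, 3.67 and 3.74 with CID (log2 fold change 0.23, adjusted p = 0.689). FLG, which encodes filaggrin, had 3.98, 4.10 and 3.45 with DM and 4.06, 4.39 and 4.18 with CID (log2 fold change 0.37, adjusted p = 0.405), and the groups overlapped in all 3 genes. All values of KRT5, KRT14 and FLG lay below 5.40, the mean log2 value that bounds the dimmest 33.3% of probe sets. At values this low a change can be missed, so whether these 3 transcripts changed stays uncertain. Marker lists of adipocytes (13 genes), bone and cartilage cells (12), endothelial cells (12) and leukocytes (12) had 0 DEGs, and by an unadjusted p of less than 0.05 they had 2 higher and 0 lower, 3 higher and 1 lower, 0 higher and 1 lower, and 0 of either. Their mean log2 values on all 9 arrays lay between 5.70 and 6.34. In bulk RNA, fewer cells of a type and less RNA per cell cannot be told apart. Of 59 cell cycle genes 0 were DEGs (4 higher and 4 lower by an unadjusted p of less than 0.05, median -0.07), and the 24 p53 targets (1 and 3) and 21 HOX genes (0 and 2) had 0 as well.

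The vehicle arrays give a background for each DEG of CID against DM, with the reserve that both differences share the DM arrays. Of the 266 named DEGs, 212 were also DEGs of CID against DMSO in the same direction. Over all 266, the median size of the difference between DMSO and DM was 0.17. The difference between CID and DM was at least 1.5-fold in each of them by the way they were chosen, so that the sizes of both are not set against each other. In 13 genes the DMSO mean had gone more than 0.5 of the way from the DM mean to the CID mean. These were CXCL2, CXCL3, CXCL5, DDX39A, DNAI4, FLVCR2, HRH2, KRTAP1-5, NHLRC1, SGIP1, TFPI2, TLR6 and TRIB2. KRTAP1-5, a keratin-associated protein of hair, had 7.07, 6.87 and 6.95 with DM, 6.43, 6.25 and 6.35 with DMSO and 5.28, 5.90 and 6.07 with CID (log2 fold change -1.21 with SE 0.18 and adjusted p = 0.00957). TLR6 had 7.69, 7.69 and 7.10 with DM, 8.27, 8.31 and 8.38 with DMSO and 8.53, 8.84 and 8.28 with CID. TRIB2, a pseudokinase, had 8.5, 8.32 and 8.74 with DM, 7.74, 7.89 and 7.90 with DMSO and 7.28, 7.10 and 7.17 with CID (log2 fold change -1.34 with SE 0.13 and adjusted p = 0.000988). For these genes, the part of DMSO in the value with CID was not tested.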

How the data were processed

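Expression was measured on 9 Clariom S Human arrays, with 3 each for DM, DMSO and CID at day 10. The deposited log2 values were made by the authors with RMA, the robust multi-array average, run in Transcriptome Analysis Console. Its version, and which form of RMA, is not given in the sources used here. RMA subtracts background, brings all arrays to 1 distribution and combines probes, so that a change shared by most genes would be removed, and these steps could not be repeated from the values.

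Group means were fitted in limma 3.58.1 (R 4.3.3, statmod 1.5.0) over all 9 arrays, with 6 residual degrees of freedom, and CID minus DM was tested with eBayes and Benjamini-Hochberg adjustment over 21448 probe sets. A linear fold change of 1.5 was the threshold, which the study's methods also state on the log2 scale in another place. The platform annotation named 17709 probe sets with 1 gene and 3739 with none, and where probe sets shared a gene, the one of the highest mean over the 9 arrays was kept, which left 17687 genes. Named are the 20 highest and 20 lowest DEGs, up to 6 DEGs of each of 40 gene lists, the markers, RAB7A and genes that the paper names, and others are marked as picked after their values were seen. Some genes that this rule takes are left unprinted. Members and lists were chosen with earlier results of these data known, so that a list's count is no independent evidence. On simulated data made from the 21448 probe sets, the fit for CID against DM recovered 72% of 2-fold and 100% of 4-fold changes, with 7 false calls. The number of genes changed in it is not given here, so the 7 false calls are no error rate for the real arrays. Promoters are RefSeq windows (GRCh38.p14) searched for exact matches. Figures were drawn with matplotlib 3.10.9 in Python 3.11.15. The number of arrays limits the precision. The alternatives are given with the closing section, and some items are not reported here.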

Additional observations from a re-analysis of the deposited data

How the results depend on the processing

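The count of DEGs (289, with 81 higher and 208 lower) was 230 (53 and 177) from the 6 CID and DM arrays only. It was 476 (147 and 329) with a trended and robust prior, 301 (99 and 202) with quantile normalization applied again and 284 (88 and 196) with median centring. An independent samples t-test of each probe set gave 2 (0 and 2) after adjustment. At an unadjusted p under 0.05 and at least 1.5-fold, that t-test gave 570 (186 and 384). The paper names this test among its general statistics and does not state it as the method for the arrays. By limma, 2712 probe sets passed an unadjusted p under 0.05. A fold threshold of 2 gave 129 (20 and 109), a log2 threshold of 1.5 gave 40 (3 and 37), and an adjusted p under 0.01 gave 93 (13 and 80). Leaving out 1 array gave 137 (without CID 1) to 224 (without DM 2) DEGs, with 25 to 46 higher and 102 to 178 lower, and 142 without DM 1, 178 without DM 3, and 154 without either CID 2 or CID 3. Cyclic loess, array weights, no fold threshold and leaving out the dimmest 33.3% of probe sets stayed within 1.5 times. Over 233 named genes and these alternatives, 3837 values kept their side of the threshold, 527 lost it, 7 gained it and 0 changed direction. Of these genes only the 114 DEGs could lose a call, and the values kept include those of genes that stayed uncalled. With 1 array left out, 70 (without DM 1) to 92 (without DM 2) of the 114 kept their call. Deviations of same-numbered DM and CID arrays had correlations of 0.02, -0.02 and -0.05 over all probe sets. Such a correlation cannot exclude a pairing by replicate number in single genes. MGP, for example, was highest and HMOX1 lowest on array 2 of each group. Whether the samples were paired was not tested. A replicate block gave 275 DEGs (74 and 201), with 107 of the 114 DEGs under the naming rule still called, against 100 from the 6 CID and DM arrays only. The cause of these differences was not tested.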

Other observations

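Of the 266 named DEGs, 142 (45 higher and 97 lower) were in none of the 40 lists, and those named here were picked by size or known role after their values were seen. RERG, a Ras-related GTPase that slows growth, had log2 values of 12.01, 11.94 and 11.73 with DM and 9.71, 9.51 and 9.45 with CID (log2 fold change -2.34 with SE 0.23 and adjusted p = 0.000988). OLR1, a receptor for oxidised low-density lipoprotein, had 8.5, 7.75 and 7.68 with DM and 6.27, 6.31 and 6.30 with CID (log2 fold change -1.68 with SE 0.22 and adjusted p = 0.00487). TMEM158, a membrane protein induced by Ras, had 10.59, 10.85 and 10.80 with DM and 9.49, 8.58 and 9.05 with CID (log2 fold change -1.71 with SE 0.24 and adjusted p = 0.00702). The arrays of the groups were apart by 2.02, 1.37 and 1.10. SLITRK1, a synaptic adhesion protein, had a log2 fold change of -1.64 (adjusted p = 0.000242), and PLXNA4, a semaphorin receptor, a log2 fold change of -1.45 (adjusted p = 0.00723). SLIT2, a guidance ligand, had a log2 fold change of -1.06 (adjusted p = 0.0125), and SLC6A15, a transporter of amino acids in neurons, a log2 fold change of 0.93 (adjusted p = 0.0221). Of these, calls were lost for SLIT2 on leaving out DM 1 or CID 2, and SLC6A15 on leaving out DM 1, DM 2, CID 1 or CID 2 (adjusted p up to 0.0941).

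BHLHE41, a repressor of the circadian clock, had 10.18, 9.87 and 10.22 with DM and 11.30, 11.19 and 11.09 with CID (log2 fold change 1.10 with SE 0.14 and adjusted p = 0.00352). ASS1, which joins citrulline and aspartate in arginine synthesis, had 11.70, 11.71 and 11.75 with DM and 12.57, 12.68 and 12.49 with CID (log2 fold change 0.86 with SE 0.11 and adjusted p = 0.00365). LTA4H, which makes leukotriene B4, had a log2 fold change of 0.70 (adjusted p = 0.0137). PTGER4, a receptor of prostaglandin E2, had a log2 fold change of -0.97 (adjusted p = 0.0289), next to the higher PTGES of the same pathway. HHIP, which binds hedgehog ligands, had a log2 fold change of -1.25 (adjusted p = 0.0198). These calls were lost for LTA4H on leaving out DM 1 or CID 3, PTGER4 on leaving out DM 1, DM 2, CID 1, CID 2 or CID 3, and HHIP on leaving out DM 1, DM 3, CID 1 or CID 3 (adjusted p up to 0.111). Of 375 measured genes of the SLC transporter family, 2 were higher (0.533%) and 5 lower (1.33%), near the 0.407% and 1.10% over all named genes, with a median log2 fold change of 0.03. Of single genes in it, SLC39A8, a carrier of zinc and manganese, had 11.21, 11.21 and 11.23 with DM and 10.46, 10.36 and 10.56 with CID (log2 fold change -0.76 with SE 0.11 and adjusted p = 0.00723). The lower members SLC2A1, the main glucose carrier, and SLC38A2, a carrier of glutamine, had a log2 fold change of -0.63 (adjusted p = 0.0397) and a log2 fold change of -0.61 (adjusted p = 0.0374). Their calls were lost for SLC2A1 and SLC38A2 on leaving out any 1 of the 6 arrays (adjusted p up to 0.139). A further 52 higher and 89 lower named genes with at least 1.5-fold changes had an adjusted p between 0.05 and 0.10, just outside the threshold. IL6 (log2 fold change -0.94, adjusted p = 0.0761) and PLIN1 (log2 fold change 1.04, adjusted p = 0.0929) were among them.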
